A study of Homo sapiens with 6 samples.

Results

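The genes described here encode ATP-binding cassette (ABC) proteins, and were followed in PC-9 cells with and without knockdown of the membrane protein IFITM3. They were picked by a rule on symbols, set with earlier results of these data known. By this rule 46 rows of the count table read ABC, a letter from A to G and a number. Of these, 1, ABCC13, was left out because RefSeq types it as a pseudogene, which leaves 45 members among 26485 gene symbols. Of the 45 members, 27 had enough counts to be tested and 18 did not. Symbols that carry a pseudogene or antisense ending were not counted, and TAP1, TAP2 and CFTR, ABC proteins with other symbols, are given only for comparison.

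RNA was sequenced from PC-9 cells in which a stable small hairpin RNA lowers IFITM3 (shIFITM3, 3 biological replicates) and from PC-9 cells with a stable control construct (shControl, 3 biological replicates). PC-9 is a human lung adenocarcinoma line driven by mutant EGFR, so both populations are of EGFR-mutant origin. IFITM3 is an interferon-induced protein of endosomal membranes that restricts virus entry, and the study's title places it with the MET receptor, AKT signalling and resistance to the EGFR inhibitor osimertinib. The control is a control shRNA in the protocol, shControl in the sample titles and ShEV in the column names, so it may be a hairpin or a vector without one. The study's design text names a single specific hairpin against IFITM3, and the labels name no drug treatment.

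Total counts ran from 21965506 to 23852371 in the shIFITM3 libraries and from 21342028 to 77228760 in the shControl libraries. IFITM3 itself was at 10.4, 12.9 and 9.75 CPM (counts per 1000000 counts of the scaled library) in shIFITM3 cells, against 57.0, 60.5 and 62.7 CPM in shControl cells. Summed CPM of the epithelial markers EPCAM, KRT8, KRT18, KRT19, CDH1 and EGFR was 6517 to 6745 in shIFITM3 and 7619 to 7660 in shControl. The largest part was KRT8, at 2602 CPM in shIFITM3 and 3675 CPM in shControl on average. KRT8, KRT18 and CDH1 fell, EGFR and EPCAM rose, and KRT19 did neither (edgeR adjusted p = 0.366). Of 28 markers of macrophages, T cells, B cells, endothelium, fibroblasts, hepatocytes and red cells, 22 stayed under 1 CPM in all libraries, and 11 of these had no count at all, among them all 4 hepatocyte and all 3 red cell markers. The summed macrophage markers were 77.3 to 82.5 CPM in shIFITM3 and 63.9 to 71.4 CPM in shControl, nearly all of it CD68, a lysosomal protein gene that many cell types express, while CSF1R rose to 4.40 ± 0.298 CPM in shIFITM3, against 0.922 ± 0.364 CPM in shControl (SD, n = 3 each, edgeR adjusted p = 6.98e-08). The summed endothelial markers were 5.26 to 6.27 CPM in shIFITM3 and 3.43 to 4.29 CPM in shControl, a sum of members that went both ways. KDR rose to 2.69 ± 0.238 CPM in shIFITM3, against 0.347 ± 0.237 CPM in shControl, and CDH5 to 2.04 ± 0.308 CPM in shIFITM3, against 0.666 ± 0.288 CPM in shControl. PECAM1 fell to 0.842 ± 0.0905 CPM in shIFITM3, against 2.69 ± 0.360 CPM in shControl (SD, n = 3 each, edgeR adjusted p of 0.000127 or lower for all 3 genes). The fibroblast markers summed to 9.99 to 13.7 CPM in shIFITM3 and 8.97 to 10.5 CPM in shControl, nearly all COL1A1, and the T cell and B cell markers to at most 1.18 CPM in either group, with CD3D, CD2 and MS4A1 at 0. The part of these markers in the results on ABC genes was not tested.

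ABC proteins bind and hydrolyse ATP on a pair of nucleotide-binding domains and, in most subfamilies, use that energy to move a substrate across a membrane. Subfamily A and several members of B and G move lipids and sterols. ABCB1, ABCG2 and much of subfamily C expel drugs, drug conjugates and organic anions, which is why they are studied in drug-resistant tumours. Peroxisomal members of subfamily D carry fatty acyl compounds into peroxisomes, while ABCE1 and subfamily F have no membrane part and act on ribosomes.

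ABCB9 (-0.48 on the log2 scale) fell just short of a cut-off of 0.5 in size, which 5 members reached at an edgeR adjusted p under 0.05. The sequences before the start sites of those 5 are shown here. Of all tested genes, 1.73% changed by more than ABCA1, 1.88% by more than ABCA12 and 2.1% by more than ABCA5. These shares were 10.4% for ABCB6 and 22.1% for ABCA3. ABCA1, ABCA12 and ABCB6 fell and ABCA5 and ABCA3 rose in shIFITM3 cells. The sequences are the 250 bases before each gene's RefSeq start on GRCh38.p14, read 5′ to 3′ on the gene's own strand, which is the minus strand for all 5. The windows are chr9:104928156-104928405 for ABCA1, chr2:215138627-215138876 for ABCA12, chr2:219218959-219219208 for ABCB6, chr17:69327134-69327383 for ABCA5 and chr16:2340729-2340978 for ABCA3. Capitals mark matches to 3 motifs, searched on both strands: the E-box CACGTG, the antioxidant response element core TGACNNNGC, and a direct repeat, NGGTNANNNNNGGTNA. The repeat has half-sites with free letters (N) around a spacer of 4 bases. It is a loose form of the arrangement that the sterol receptor LXR binds with RXR.
ABCA1: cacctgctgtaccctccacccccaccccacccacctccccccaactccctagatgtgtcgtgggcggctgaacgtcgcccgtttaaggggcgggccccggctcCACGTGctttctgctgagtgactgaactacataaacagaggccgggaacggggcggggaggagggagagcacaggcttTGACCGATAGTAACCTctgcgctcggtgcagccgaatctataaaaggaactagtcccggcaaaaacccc
ABCA12: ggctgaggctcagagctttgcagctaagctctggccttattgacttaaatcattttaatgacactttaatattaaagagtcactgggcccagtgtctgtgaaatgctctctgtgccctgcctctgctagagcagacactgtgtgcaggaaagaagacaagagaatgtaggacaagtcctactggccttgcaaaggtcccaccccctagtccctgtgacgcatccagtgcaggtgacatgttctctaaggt
ABCB6: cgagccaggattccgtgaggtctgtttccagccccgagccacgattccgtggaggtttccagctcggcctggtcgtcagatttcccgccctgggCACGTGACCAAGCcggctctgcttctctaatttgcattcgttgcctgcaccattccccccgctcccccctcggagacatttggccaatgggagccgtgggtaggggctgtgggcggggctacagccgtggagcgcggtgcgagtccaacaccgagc
ABCA5: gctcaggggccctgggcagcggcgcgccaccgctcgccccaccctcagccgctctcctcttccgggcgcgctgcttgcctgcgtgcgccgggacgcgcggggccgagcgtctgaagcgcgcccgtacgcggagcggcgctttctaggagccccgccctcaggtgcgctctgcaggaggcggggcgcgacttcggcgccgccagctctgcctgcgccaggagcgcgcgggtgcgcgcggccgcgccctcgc
ABCA3: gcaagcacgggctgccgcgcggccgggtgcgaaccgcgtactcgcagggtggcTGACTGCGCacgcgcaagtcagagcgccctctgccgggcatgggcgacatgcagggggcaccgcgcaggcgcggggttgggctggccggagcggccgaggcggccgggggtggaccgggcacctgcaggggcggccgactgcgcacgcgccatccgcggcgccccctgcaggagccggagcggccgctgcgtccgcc

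In the ABCA1 window the E-box begins 147 bases and the direct repeat 69 bases before the start. The direct repeat was searched after the values were known, and ABCA1 was the 1 member of the 35 with a RefSeq promoter window that held it (2.86%), against 178 of 27305 promoters in the whole table (0.652%). The ABCB6 window holds an E-box from 156 to 151 bases before the start, which overlaps an antioxidant response element core from 152 to 144 bases before it. ABCA3 has that core from 197 to 189 bases before its start, ABCA5 has it only past the start, outside the printed stretch, and ABCA12 has none of the 3 motifs. Over windows of 300 bases that run 50 bases past the start, the E-box was in 4 of 35 member promoters (11.4%) and in 7.43% of all promoters, and the response element core in 7 of 35 (20.0%) and in 13.6%. Genes with the core moved in both directions: ABCA3 and ABCA5 rose, ABCB6, ABCC4, ABCD4 and ABCF1 fell, and ABCA2 did not pass. ABCF1 and ABCA9 also hold the E-box. A letter match describes the sequence and does not show that a factor binds there. ABCA4, ABCA8, ABCB4, ABCB5, ABCC1, ABCC3, ABCC8 and ABCG1 were not searched.

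Most of the expressed ABC genes were lower after IFITM3 knockdown, by small amounts. A gene is said to rise or fall where its Benjamini-Hochberg adjusted p in edgeR's quasi-likelihood test was under 0.05 over 14018 tested genes. By that rule 21 of 27 tested members changed (77.8%), against 56.1% of all tested genes. The 17 that fell are 63.0% of the tested members, against 28.4% of all tested genes, and the 4 that rose are 14.8%, against 27.7%. The median log2FC, the log2 fold change of shIFITM3 over shControl, was -0.22 over the tested members and -0.0001 over all tested genes. Of these 21 changes, 16 were under 0.5 on the log2 scale, as were 5105 of the 7870 changes among all tested genes. Among the 21, 3 reached at least a 2-fold change, a size that 6.52% of all tested genes reached with a call. For 23 of the 27 members the shIFITM3 and shControl samples were apart in CPM, against 60.9% of all tested genes. In bulk RNA, fewer cells with a transcript and less transcript per cell cannot be told apart. The test sets each difference against the spread among 3 samples per group. With a single hairpin against IFITM3, the spread between hairpins was not tested.

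**Figure D1:**
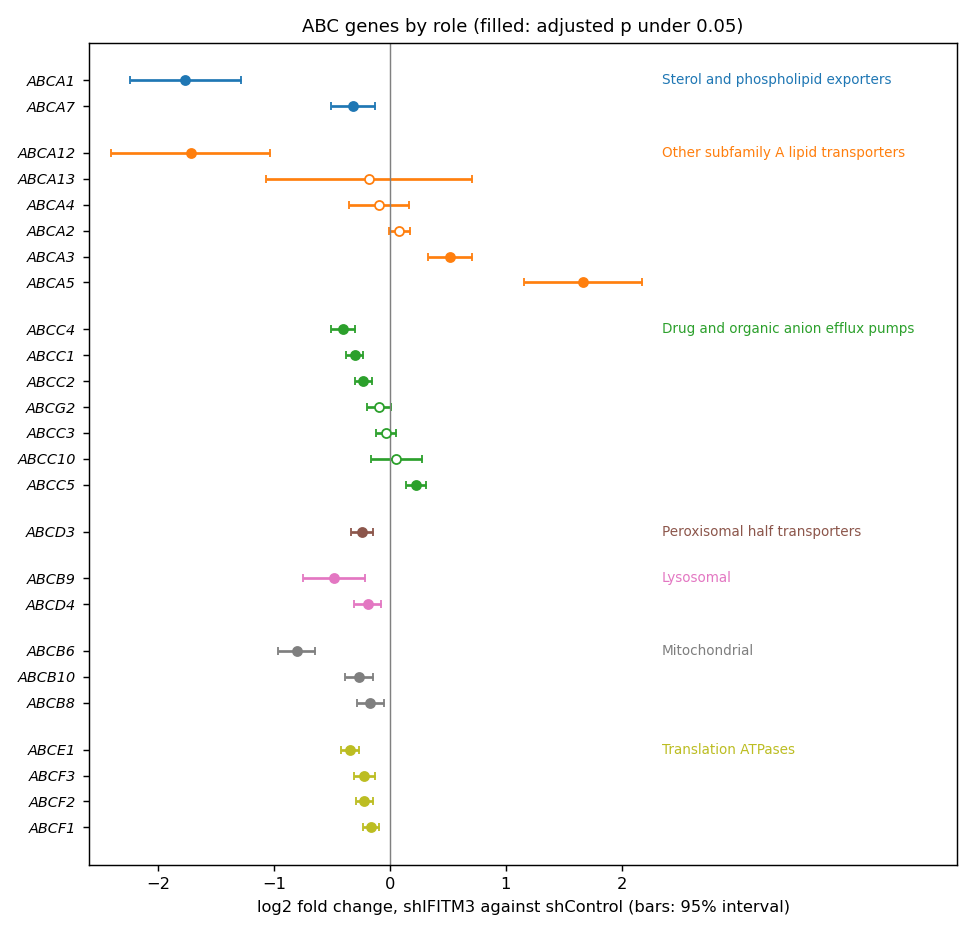
Log2 fold change (log2FC) of shIFITM3 against shControl for 25 of the 27 tested ABC genes, grouped by role, with 95% intervals; filled points have an edgeR adjusted p under 0.05. ABCA1 and ABCA12 lie below -1.5 and ABCA5 above 1.5, while the efflux pumps, ABCD3 and translation ATPases lie between -0.5 and 0.5.

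Among the exporters of sterols and phospholipids, 2 of 7 members could be tested. Both fell, as did 28.4% of all tested genes, and ABCA1 had the lowest log2FC of all tested members. Its product loads cholesterol and phospholipid onto apolipoprotein A-I at the cell surface. ABCA1 (chromosome 9, 104781006 to 104928155, GRCh38) was at 0.908, 1.13 and 1.42 CPM in shIFITM3 cells (20, 26 and 34 counts), against 3.20, 3.999 and 4.56 CPM in shControl cells (68, 308 and 125 counts). The highest knockdown sample was below the lowest control sample. The mean in shIFITM3 was 0.294 times that in shControl (log2FC -1.77, SE 0.232, edgeR adjusted p = 6.44e-07), and no adjusted p exceeded 1.39e-05 under the alternatives tried. Of all tested genes, 1.73% had a log2FC larger in size.

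ABCA7, a related phospholipid exporter, fell too (1.56 ± 0.0678 CPM per kilobase of exon in shIFITM3 and 1.94 ± 0.118 in shControl, against 0.102 ± 0.0227 in shIFITM3 and 0.345 ± 0.0600 in shControl for ABCA1, SD, n = 3 each). It was at 12.4, 13.6 and 13.2 CPM in shIFITM3, against 15.1, 17.1 and 16.4 CPM in shControl (log2FC -0.32, edgeR adjusted p = 0.00462). ABCG1, which passes cholesterol on to lipoprotein particles, had only 2, 4 and 0 counts in shIFITM3 and 0, 10 and 4 counts in shControl, too few to test. ABCG4, its close relative, and ABCB4, the phosphatidylcholine exporter of bile, reached at most 6 counts in a library. ABCG5 and ABCG8, the pair that exports plant sterols from liver and gut, had a single count and no count. ABCB4 had 4, 4 and 6 counts in shIFITM3 and 0, 2 and 0 counts in shControl. It passed only when no filter on low counts was applied (edgeR adjusted p = 0.0393). All of these counts were even, and that p may be too low if counts come in pairs.

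**Figure D2:**
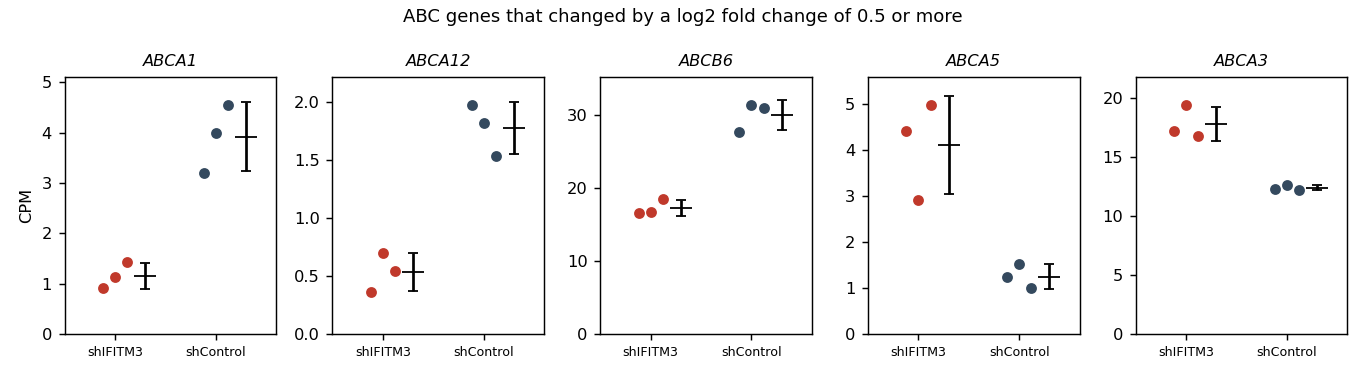
CPM of the 5 ABC genes with an edgeR adjusted p under 0.05 and a log2FC of at least 0.5 in size, in each of 3 shIFITM3 and 3 shControl samples (points), with mean and SD beside them; each axis starts at 0. In all 5 panels the 2 groups do not overlap, with ABCA1, ABCA12 and ABCB6 lower and ABCA5 and ABCA3 higher in shIFITM3.

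The other lipid transporters of subfamily A went both ways. ABCA12 carries glucosylceramide into the lamellar granules of keratinocytes and builds the skin's lipid barrier. ABCA12 (chromosome 2, 214931542 to 215138626) was at 0.363, 0.695 and 0.544 CPM in shIFITM3, against 1.98, 1.82 and 1.53 CPM in shControl, from 8, 16 and 13 counts and 42, 140 and 42 counts. Groups did not overlap, and the log2FC was -1.72 (SE 0.331, edgeR adjusted p = 0.000103). Under a filter of at least 50 counts in 3 samples it was not tested.

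ABCA5, a lysosomal and late endosomal member linked to cholesterol handling, rose. ABCA5 (chromosome 17, 69244311 to 69327133) was at 4.41, 2.91 and 4.98 CPM in shIFITM3 (97, 67 and 119 counts) and at 1.225, 1.52 and 0.985 CPM in shControl (26, 117 and 27 counts). The lowest knockdown sample lay above the highest control sample, although the knockdown samples spread widely (4.10 ± 1.07 CPM in shIFITM3, 1.24 ± 0.268 CPM in shControl, SD, n = 3 each). Its mean was 3.30 times as high (log2FC 1.66, SE 0.245, edgeR adjusted p = 3.42e-06). Its exons overlap those of ABCA10 on the same strand over 2.42% of their length, and ABCA10 had at most 8 counts in a library.

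ABCA3 fills the surfactant-storing lamellar bodies of alveolar type II cells with phospholipid. ABCA3 (chromosome 16, 2275881 to 2340728) was at 17.2, 19.5 and 16.8 CPM in shIFITM3, against 12.3, 12.7 and 12.25 CPM in shControl. The groups were clearly apart, and the log2FC was 0.52 (SE 0.0910, edgeR adjusted p = 3.27e-05). ABCA2, an endolysosomal sterol and lipid transporter, had the highest level of the subfamily per exon length and did not pass (log2FC 0.08, 95% interval -0.01 to 0.17, edgeR adjusted p = 0.124). ABCA4, the retinal flippase for retinoid compounds, did not pass either (-0.09, interval -0.35 to 0.16), nor did ABCA13, whose 6 libraries held 8 to 50 counts (-0.18, interval -1.07 to 0.71). Across the 10 members of this group, 6 were tested and 3 of these changed (50%, against 56.1% of all tested genes). Of the 6, 2 rose (33.3%, against 27.7%) and 1 fell (16.7%, against 28.4%). The remaining 4, ABCA6, ABCA8, ABCA9 and ABCA10, form a cluster with ABCA5 on chromosome 17 and had at most 8 counts in any library.

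The multidrug efflux pumps did not move as a block. ABCB1, which encodes P-glycoprotein, was close to silent, with 4, 6 and 8 counts in shIFITM3 and 2, 2 and 2 counts in shControl. Its highest level in any library was 0.335 CPM, and without a low-count filter its edgeR adjusted p was 0.122. ABCG2, the breast cancer resistance protein and a pump for several kinase inhibitors, was at 59.2, 55.2 and 60.02 CPM in shIFITM3, against 62.2, 62.3 and 61.9 CPM in shControl. Those 2 ranges did not overlap, but the difference was small and did not pass (log2FC -0.10, interval -0.20 to 0.01, edgeR adjusted p = 0.101). It passed after a correction for GC content and transcript length that was chosen after seeing the data (-0.11, edgeR adjusted p = 0.0374). That correction also put the median log2FC of all tested genes at -0.0566, against -0.0001 without it.

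Of 6 tested subfamily C pumps, 3 fell (50%, against 28.4% of all tested genes), 1 rose (16.7%, against 27.7%) and 2 did not pass. ABCC1, or MRP1, which exports glutathione conjugates across the basolateral membrane, was at 173, 175.5 and 169 CPM in shIFITM3, against 207, 220 and 211 CPM in shControl, with no overlap. Its log2FC was -0.30 (SE 0.0359, edgeR adjusted p = 1.35e-07). ABCC2, the apical counterpart that secretes conjugates into bile, fell by 0.23 on the log2 scale, with a mean of 179.8 ± 3.09 CPM in shIFITM3 and 211 ± 2.54 CPM in shControl (SD, n = 3 each, edgeR adjusted p = 4.51e-06). ABCC4, which exports cyclic nucleotides and prostaglandins, had a log2FC of -0.41, with 56.0 ± 1.82 CPM in shIFITM3 and 74.6 ± 4.37 CPM in shControl (edgeR adjusted p = 3.81e-07). ABCC5, another exporter of cyclic nucleotides, was the 1 tested pump that rose, to 112.8 ± 3.02 CPM in shIFITM3, against 96.3 ± 1.28 CPM in shControl (log2FC 0.23, edgeR adjusted p = 4.37e-05). After the GC and length correction its log2FC was 0.13.

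ABCC3, an exporter of glucuronides, was at 105 ± 1.62 CPM in shIFITM3 and 107 ± 3.84 CPM in shControl, with overlapping ranges (-0.03, interval -0.12 to 0.05, edgeR adjusted p = 0.519). It passed only after the GC and length correction, at -0.14 (edgeR adjusted p = 0.00261). ABCC10, a pump known to act on taxanes, stayed between 12.7 and 16.5 CPM in all 6 samples (0.06, interval -0.16 to 0.28). Of 12 genes of this group 7 were tested, and 4 of these changed (57.1%, against 56.1% of all tested genes). ABCC6 and ABCC11 had at most 11 counts in a library, ABCC6 with pseudogene copies that could share its reads, and ABCB5 and ABCC12 had none.

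**Figure D3:**
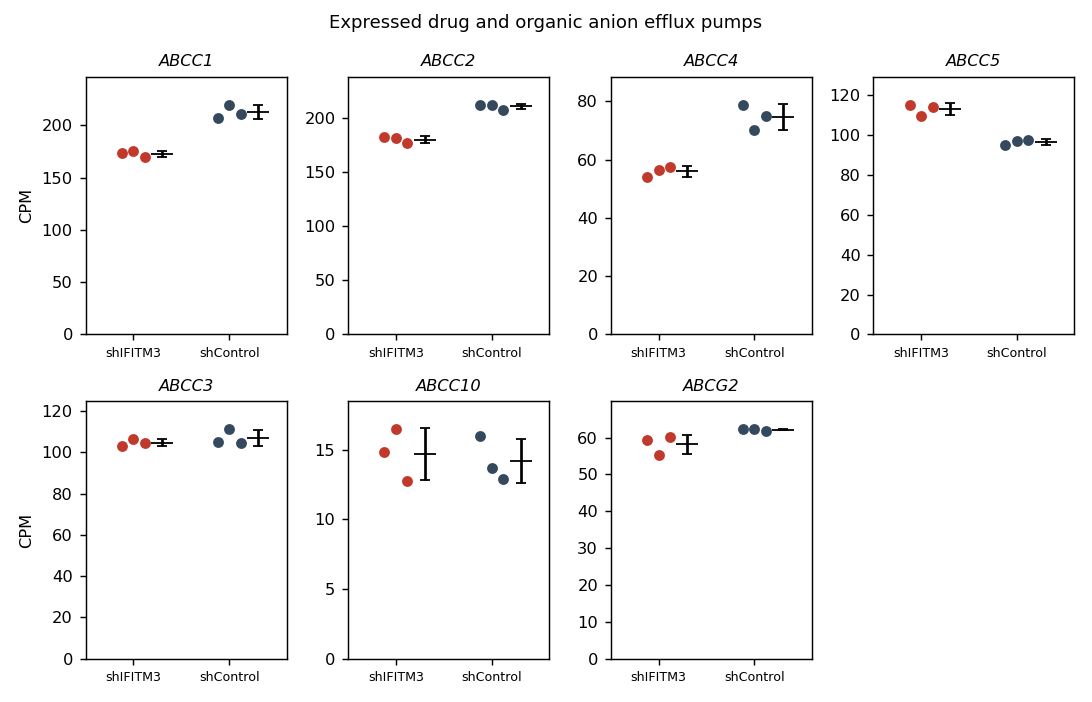
CPM of the 7 tested drug and organic anion efflux pumps in each of 3 shIFITM3 and 3 shControl samples (points), with mean and SD beside them; each axis starts at 0. ABCC1, ABCC2 and ABCC4 are lower and ABCC5 higher in shIFITM3 without overlap, and ABCC3 and ABCC10 overlap.

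Summed per kilobase of exon, the pump transcripts of the 12 genes came to 86.8, 86.6 and 85.9 CPM per kb in shIFITM3, against 97.1, 98.3 and 96.3 CPM per kb in shControl. ABCC1 and ABCC2 made up the largest shares. ABCC2 was at 22.9 ± 0.3945 and ABCC1 at 22.8 ± 0.4085 CPM per kb in shIFITM3, a difference within their spread, and ABCC1 was at 28.1 ± 0.854 and ABCC2 at 26.9 ± 0.324 CPM per kb in shControl. ABCG2 (11.5 ± 0.508 in shIFITM3, 12.3 ± 0.0415 in shControl) and ABCC3 (10.9 ± 0.168 in shIFITM3, 11.1 ± 0.399 in shControl) followed on the same scale. ABCC5 stood above ABCC4 in shIFITM3 cells, at 9.86 ± 0.264 against 6.49 ± 0.211 CPM per kb. In shControl cells ABCC5 and ABCC4 were within their spread, at 8.42 ± 0.112 and 8.64 ± 0.507 CPM per kb.

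**Figure D4:**
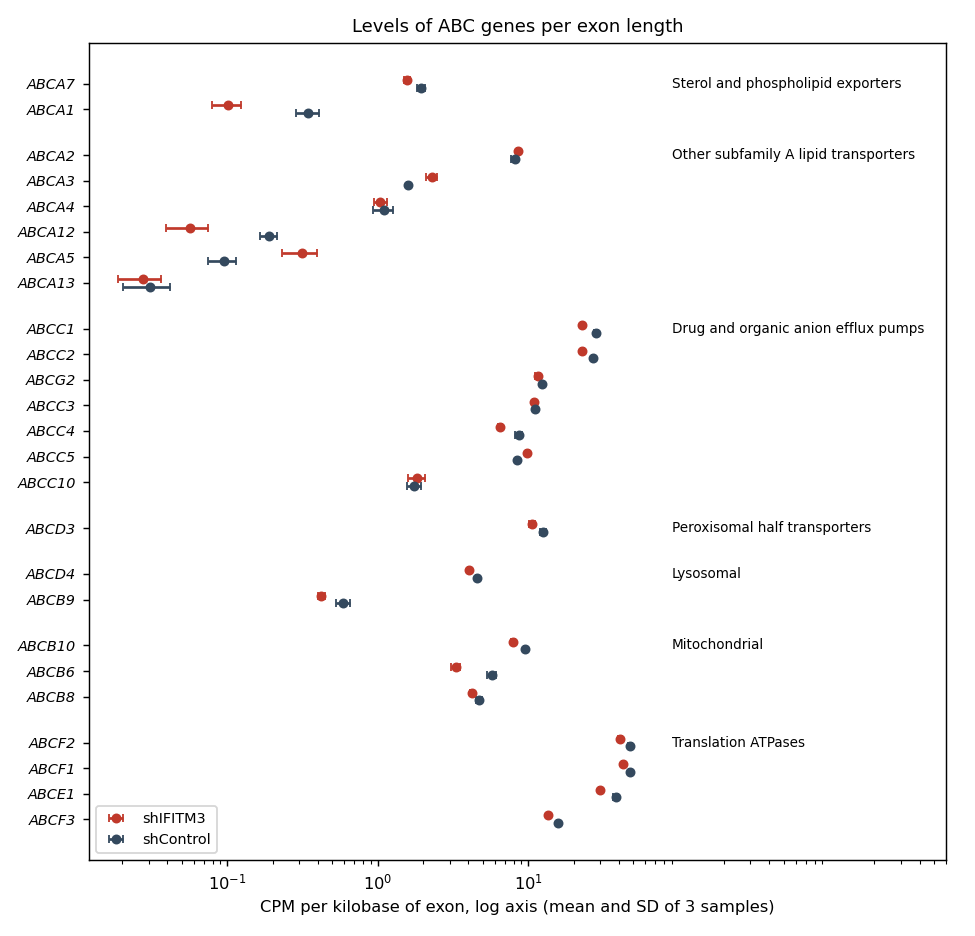
Mean CPM per kilobase of exon (log axis) of 25 of the 27 tested ABC genes in shIFITM3 and shControl cells, with the SD of 3 samples each. The translation ATPases reach 42.5 CPM per kb in shIFITM3 and 47.5 in shControl, while ABCB9, ABCA5, ABCA1, ABCA12 and ABCA13 lie under 1 in both groups.

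Of the peroxisomal members, ABCD3, which imports branched-chain and bile acid intermediates, fell. ABCD3 (chromosome 1, 94385131 to 94518663) was at 77.9, 79.3 and 84.4 CPM in shIFITM3, against 98.9, 90.6 and 97.01 CPM in shControl (log2FC -0.24, SE 0.04695, edgeR adjusted p = 0.00012). Its highest knockdown sample lay below its lowest control sample. ABCD2, a transporter of very long-chain and polyunsaturated acyl-CoA, had no count in any library.

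Peroxisomal oxidation and import genes that work with subfamily D proteins went both ways, with a median log2FC of -0.11. Of 18 tested genes 3 were higher (16.7%, against 27.7% of all tested genes) and 8 lower (44.4%, against 28.4%). SLC25A17, a peroxisomal carrier of coenzyme A and other cofactors (-0.55), ACOX3, an oxidase of branched-chain acyl-CoA (-0.48), and HSD17B4, the D-bifunctional protein of the same spiral (-0.23), fell, and the acyl-CoA synthetase gene ACSL1 rose (0.34). Their edgeR adjusted p was 0.000283 or less.

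The mitochondrial members ABCB6, ABCB8 and ABCB10 fell, as did 28.4% of all tested genes. ABCB6, a porphyrin transporter found in the outer mitochondrial membrane and in lysosomes, had the lowest log2FC of the 3. ABCB6 (chromosome 2, 219209772 to 219218958) was at 16.6, 16.7 and 18.5 CPM in shIFITM3, against 27.75, 31.5 and 30.9 CPM in shControl, so that the groups were far apart. Its mean was 0.575 times the control mean (log2FC -0.81, SE 0.0771, edgeR adjusted p = 3.87e-09). ABCB10, which supports haem synthesis, fell too (-0.27, edgeR adjusted p = 0.000338). ABCB8 fell by 0.17 on the log2 scale (edgeR adjusted p = 0.0141), a call that ended without shIFITM3 replicate 3, shControl replicate 2 or shControl replicate 3 (edgeR adjusted p of 0.0547, 0.0826 and 0.051). After the GC and length correction ABCB8 was at -0.28.

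In the iron-sulfur and haem pathways that these members serve, 3 of 16 tested genes rose (18.8%, against 27.7% of all tested genes). Another 8 fell (50%, against 28.4%), and the median log2FC was -0.16. NFS1, the cysteine desulfurase that supplies sulfur to the clusters (-0.44), FECH, which inserts iron into haem (-0.39), and ISCA2, a late cluster assembly factor (-0.37), fell with edgeR adjusted p of 1.16e-05 or less. PPOX, the oxidase just before FECH, rose (0.79, edgeR adjusted p = 0.00024).

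Both lysosomal members fell, as did 28.4% of all tested genes. ABCB9, a peptide transporter related to TAP, was at 5.615 ± 0.298 CPM in shIFITM3 and 7.82 ± 0.811 CPM in shControl (log2FC -0.48, SD, n = 3 each, edgeR adjusted p = 0.00288). Exons of OGFOD2 and ARL6IP4 on the opposite strand overlap 24.4% of its exon length, so its value is uncertain, since the strand setting of the counting is not stated. ABCD4, which with LMBRD1 releases vitamin B12 from lysosomes, was at 35.2 ± 0.419 CPM in shIFITM3 and 40.2 ± 0.753 CPM in shControl (-0.19, edgeR adjusted p = 0.00605). Its partner LMBRD1 rose (0.36). Of 8 tested genes of cobalamin handling 2 rose (25%, against 27.7% of all tested genes) and 3 fell (37.5%, against 28.4%), with a median of -0.05. The falls were MTRR (-0.45) and MTR (-0.23), which act in methionine synthesis, and TCN2 (-0.49), a cobalamin carrier of plasma.

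All 4 ATPases of translation fell, as did 28.4% of all tested genes. Their changes were modest, as from 37.2% (ABCE1) to 66.4% (ABCF1) of all tested genes had a log2FC larger in size. Of the 4, ABCF1, ABCF2 and ABCE1 had the highest levels per exon length among the tested members in both groups. ABCE1, which splits ribosomes after termination, was at 186.5, 186.5 and 192 CPM in shIFITM3, against 249, 234 and 234 CPM in shControl, with no overlap. Its log2FC was -0.34 (SE 0.0358, edgeR adjusted p = 1.6e-08). Exons of ANAPC10 and OTUD4 on the opposite strand overlap 11.9% of its exon length. ABCF1, which binds the initiation factor eIF2 (-0.16), ABCF2 (-0.22) and ABCF3 (-0.22) fell with edgeR adjusted p of 0.000261 or less. ABCF1 and ABCF2 were at 42.5 ± 0.332 and 40.8 ± 1.29 CPM per kb in shIFITM3 and at 47.4 ± 0.375 and 47.5 ± 1.15 CPM per kb in shControl. ABCE1 followed at 30.1 ± 0.535 CPM per kb in shIFITM3 and 38.2 ± 1.38 in shControl, and ABCF3 at 13.6 ± 0.0802 in shIFITM3 and 15.8 ± 0.2005 in shControl.

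Of the 7 tested genes that work with ABCE1 in ribosome release and recycling, 5 were lower at that threshold (71.4%, against 28.4% of all tested genes). The other 2 were higher (28.6%, against 27.7%), and the median log2FC was -0.22. DENR, which helps clear the small subunit, fell by 0.74 on the log2 scale, and its partner MCTS1 (-0.24), the rescue factor gene HBS1L (-0.33) and the release factor gene ETF1 (-0.22) fell as well, each at edgeR adjusted p 1.72e-05 or lower.

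The bile salt pump ABCB11 and ABCC8, the sulfonylurea receptor of pancreatic beta cells, had no count, and ABCC9, the receptor's cardiovascular counterpart, had at most 9 counts in a library. In all, 7 members had no count in any library. A count of 0 allows up to 3 counts in a library, which is 0.125 to 0.136 CPM in the shIFITM3 libraries and 0.039 to 0.141 CPM in the shControl libraries. Among the counts from 1 to 10 of members too low to test, 36 of 43 were even, as were 79.9% of such counts over all genes. The limits cover counting error only, and would be too low if counts come in pairs.

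ABCA1 belongs to the genes that LXR controls, so the LXR and cholesterol efflux genes were followed beside it. Of 13 tested genes, ABCA1 included, 5 rose (38.5%, against 27.7% of all tested genes) and 6 fell (46.2%, against 28.4%). The median log2FC of the 13 was 0.20. MYLIP, an LXR target that marks the LDL receptor for degradation, was at 4.375 CPM in shIFITM3 and 9.52 CPM in shControl on average (-1.13, edgeR adjusted p = 4.98e-08). LPCAT3, a phospholipid-remodelling LXR target, also fell (-0.56, edgeR adjusted p = 5.38e-09). RXRA, which encodes a partner of LXR, fell (-0.52, edgeR adjusted p = 3.69e-11), and NR1H2, which encodes LXR-beta, rose (0.41, edgeR adjusted p = 3.83e-08). SREBF1 also fell and RXRB, SMPDL3A, APOE and APOC1 also rose.

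**Figure D5:**
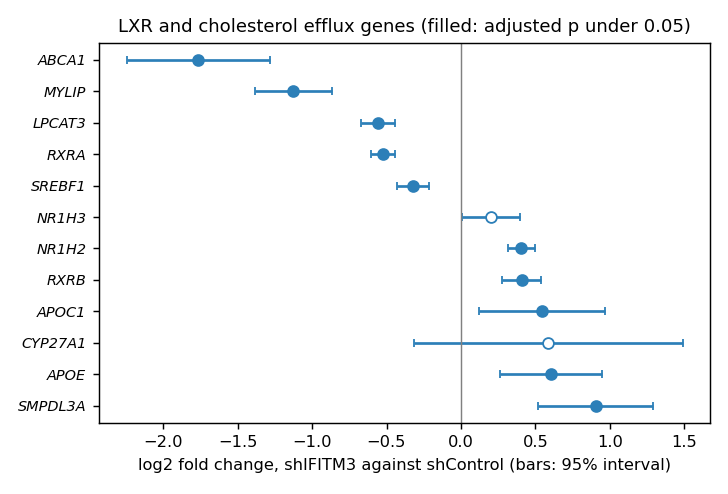
Log2 fold change (log2FC) of shIFITM3 against shControl with 95% intervals for 12 of the 13 tested genes of the LXR and cholesterol efflux list; filled points have an edgeR adjusted p under 0.05. ABCA1 (-1.77) and MYLIP (-1.13) are farthest below 0 and SMPDL3A (0.91) farthest above.

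Among enzymes of glutathione and conjugation, which make substrates for the subfamily C pumps, 3 of 14 tested genes rose and 5 fell (median log2FC -0.07). These shares are 21.4% and 35.7%, against 27.7% and 28.4% of all tested genes. GCLM (-0.39) and GCLC (-0.26), the subunits of the first enzyme of glutathione synthesis, and the transferase gene GSTM3 (-0.48) fell, and MGST3, a membrane-bound transferase, rose (0.53), each at edgeR adjusted p 1.9e-06 or lower. Of 8 tested regulators of pump genes 2 rose (25%, against 27.7%) and 5 fell (62.5%, against 28.4%), with a median of -0.12. The transcription factor genes HIF1A (-0.50), YBX1 (-0.16) and ARNT (-0.32) fell, with edgeR adjusted p of 9.8e-05 or less. NR1I2, the xenobiotic receptor PXR that induces ABCB1 in liver and gut, had no count.

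The ABC proteins outside the symbol rule were split as well. TAP1 rose and TAP2 fell, the pair that carries peptides into the endoplasmic reticulum for MHC class I, with 26.9 CPM in shIFITM3 and 21.5 CPM in shControl on average for TAP1 (0.33, edgeR adjusted p = 0.000488) and 162 CPM in shIFITM3 and 187 CPM in shControl for TAP2 (-0.21, edgeR adjusted p = 4.92e-05). CFTR, the chloride channel of the family, was too low to test.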

How the data were processed

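All 6 samples share 1 table of whole-number read counts by gene symbol, which the authors deposited unnormalized. Per the labels' protocols, RNA was isolated with the RNeasy Mini Kit and libraries were made with a stranded Illumina mRNA kit. The submitters' processing notes list hg38, Subread 2.0.6 with featureCounts, HISAT2 2.2.1, SAMtools 1.20, fastp 0.23.4 and FastQC 0.12.1. Neither the annotation nor the strand setting of the counting is stated in the sources used here, so overlapping genes may share reads.

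In edgeR 4.0.16 (R 4.3.3), the counts went through filterByExpr by group, TMM scaling, glmQLFit on group alone and two-sided glmQLFTest, with Benjamini-Hochberg adjustment over 14018 genes. SE was taken from log2FC, the log2 fold change, and the F value (size of log2FC over root F). The procedure was also run on simulated data in which far fewer genes changed than were called here. That run does not check the scaling or the calls where so many genes change. Levels are CPM on TMM-scaled totals, and CPM per kilobase divides by the merged exon length in GENCODE release 29. Coordinates and promoters are from RefSeq on GRCh38.p14, the assembly of hg38, and 35 of 45 members had a promoter window.

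Tested members are named, except that some genes are not reported here. Values in every sample are given for members with adjusted p under 0.05 and log2FC of at least 0.5 in size, and for ABCA1, ABCG1, ABCB1, ABCC1, ABCG2, ABCD2, ABCD3 and ABCE1. Each pathway list gives up to 4 of the genes with the smallest p. Members, roles and lists were chosen with earlier results of these data known, so no list count is independent support. Alternatives used DESeq2 1.42.0 and limma 3.58.1, other scalings and filters, the replicate number as a block, a thinned library and each sample left out. The counts of 1 library are not independent molecules where reads come in pairs or from PCR.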

Additional observations from a re-analysis of the deposited data

How the results depend on the processing

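The number of ABC members that changed was 20 to 23 under each alternative run, against 21, with 4 or 5 higher and 16 to 19 lower. They comprised DESeq2, limma-voom, scaling by totals, by upper quartiles or by RLE, dropping the filter, requiring 50 counts in 3 samples, blocking on replicate number, shControl replicate 2 thinned to 23505216 counts, each sample left out, and a GC and length correction chosen after seeing the data, which 97.7% of tested genes had values for. Of all tested genes, the alternatives called from 42% (no filter, 38 members tested) to 61.3% (50 counts in 3 samples, 25 members tested), against 56.1% in the main run. The 19 lower members came with the GC and length correction, which called 34.9% of all tested genes lower, against 28.4% in the main run. Of 27 members 20 kept their direction and their side of the threshold in each alternative that tested them, ABCA1 between -1.95 and -1.63 on the log2 scale.

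Signs turned only in members that had not passed: ABCA2 (-0.041) and ABCC10 (-0.047) after the GC and length correction, and 4 members when a sample was left out. After that correction the median log2FC of all tested genes was -0.0566, lower than the values of ABCA2 and ABCC10. Over the samples left out in turn, log2FC ran from -0.1599 to 0.0687 for ABCA4, from -0.3909 to 0.0679 for ABCA13, from -0.051 to 0.0018 for ABCC3 and from -0.0365 to 0.1502 for ABCC10. The turns came without shControl replicate 2 for ABCA4 and ABCC3, without shIFITM3 replicate 3 for ABCA13, and without shIFITM3 replicate 2 or shControl replicate 3 (-0.0012) for ABCC10. The cause was not tested. ABCB8 lost its call when any of 3 samples was left out, and ABCC3 and ABCG2 passed after the GC and length correction.

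With the replicate number as a block 21 members passed, 4 higher and 17 lower. Deviations of same-numbered samples correlated at 0.0157, 0.033 and 0.00634 for numbers 1, 2 and 3, and 3 of 6 samples correlated best with their own number. The labels do not say what the numbers mark, and whether same-numbered samples share a culture, day or batch was not tested. The 18 members with at most 11 counts in every library were left untested by the filter. Without it the 11 with any count were tested, and of these only ABCB4 passed (edgeR adjusted p = 0.0393). ABCB4 had at most 6 counts in a library, all of them even.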
